A study of Mus musculus with 8 samples.

Results

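The cone phototransduction genes encode the proteins with which cone photoreceptors turn light into an electrical signal. The set has 10 genes: the opsins Opn1sw and Opn1mw, the cone arrestin Arr3, the transducin subunits Gnat2, Gnb3 and Gngt2, the phosphodiesterase subunits Pde6c and Pde6h, and the channel subunits Cnga3 and Cngb3. They were chosen by name, and every probe set that the platform annotation pairs with them was used, which gave 13 of the 45037 probe sets tested, for 9 of the 10 genes. Cnga3 was not analysed here. Expression was measured in total RNA of mouse retina on 8 Affymetrix 3' expression arrays, as log2 RMA values, on which a step of 1 is a doubling. There were 3 arrays from mice homozygous for an Nxnl1 null allele (ko/ko), 2 from heterozygotes (ko/wt) and 3 from wild-type mice (wt/wt). All mice were of the strain labelled BALB/c AJ and 40 days old, were kept in a 12 h light and dark cycle, and had the pigment epithelium dissected away from the retina. Strain, age and housing were thus shared by the 3 groups, and the labels do not say which cells the allele was removed from, or whether each array stands for 1 animal or several. The p-values therefore measure the spread between these arrays, which may be technical.

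In a cone, light activates an opsin, which switches on the cone form of the G protein transducin. Transducin relieves the phosphodiesterase of its inhibitory subunit, cyclic GMP falls, and cyclic nucleotide-gated channels close. Arrestin then binds the activated opsin and ends its signal. Rods use a parallel cascade built from paralogous genes. Most mouse cones carry both opsins, in proportions that change from the dorsal to the ventral retina, and cones are a small minority of mouse photoreceptors. Nxnl1 is related to the thioredoxins, and a factor made from it is known for keeping cones alive. In whole retina, fewer cones and less RNA per cone cannot be told apart.

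Of the 9 measured genes, 5 matched an entry in the RefSeq promoter table of the build GRCm38.p6. The 250 bases before the start of 4 of them are printed below 5′ to 3′ on the gene's strand, because they show the control regions of both opsins, which are compared with each other further on, of Arr3, which varied widely between arrays, and of Gnat2, which varied least. Capitals mark the letters TAATCC or TAATCT, which resemble the core recognised by the photoreceptor factor Crx, and TATAAA, each searched on both strands. The last of the Crx-like forms was added after the sequences had been read, and the 3 words do not overlap in these windows. The windows are chr6:29380514-29380763 on the minus strand for Opn1sw and, on the plus strand, chrX:74127216-74127465 for Opn1mw, chrX:100605247-100605496 for Arr3 and chr3:108092816-108093065 for Gnat2.
Opn1sw: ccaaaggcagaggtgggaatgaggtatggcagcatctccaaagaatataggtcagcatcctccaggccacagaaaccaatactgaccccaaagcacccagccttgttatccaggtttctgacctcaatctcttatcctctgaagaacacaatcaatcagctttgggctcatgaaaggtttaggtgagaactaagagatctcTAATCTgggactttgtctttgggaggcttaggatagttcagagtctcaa
Opn1mw: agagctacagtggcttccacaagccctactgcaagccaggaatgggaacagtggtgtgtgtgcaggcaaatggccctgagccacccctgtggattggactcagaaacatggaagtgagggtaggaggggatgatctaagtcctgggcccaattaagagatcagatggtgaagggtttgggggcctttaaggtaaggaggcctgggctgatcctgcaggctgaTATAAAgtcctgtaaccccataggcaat
Arr3: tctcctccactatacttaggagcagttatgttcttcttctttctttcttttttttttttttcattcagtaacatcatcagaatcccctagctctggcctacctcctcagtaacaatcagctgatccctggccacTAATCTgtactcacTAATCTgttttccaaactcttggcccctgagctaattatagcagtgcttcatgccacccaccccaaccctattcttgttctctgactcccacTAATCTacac
Gnat2: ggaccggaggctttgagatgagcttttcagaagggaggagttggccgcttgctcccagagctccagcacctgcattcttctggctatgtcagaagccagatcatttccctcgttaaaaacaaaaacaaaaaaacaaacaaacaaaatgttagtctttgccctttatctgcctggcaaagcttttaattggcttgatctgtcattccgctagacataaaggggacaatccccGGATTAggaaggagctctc
Arr3 had 3 matches to TAATCT, Opn1sw had 1 match to TAATCT, and Gnat2 had 1 match to TAATCC, read on the opposite strand. Opn1mw had no match to either form and 1 match to TATAAA. Among all 32851 windows of this length in the table, 6.3% held TAATCC, 7.3% held TAATCT and 12.4% held TATAAA. The window of Pde6h, the fifth entry, held none of the 3. A match describes letters only, and its absence says nothing about binding of the factor.

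The target gene went against its label on 2 arrays. At its brighter probe set Nxnl1 read 6.13, 8.76 and 6.13 on the arrays labelled ko/ko 1, 2 and 3, and 8.65 and 6.75 on those labelled ko/wt 1 and 2, against 9.22, 8.87 and 8.65 in wild type. The array labelled ko/ko 2 thus sat inside the wild-type range, and that labelled ko/wt 2 lay far below it. Differences of cone genes between groups are therefore given with all arrays and without these 2, which are picked out by Nxnl1 and not by any cone gene. Correlations between genes, the rod counterparts and the counts by which groups overlap use all 8 arrays as labelled. RNA quality also differed. Its measure is the signal of actin at the 5′ end less that at the 3′ end, on the log2 scale, and lower values mean more degraded RNA. This actin difference was -1.74, -0.69 and -1.26 on the arrays labelled ko/ko 1, 2 and 3, -0.90 and -0.71 in heterozygotes, and -1.81, -1.04 and -0.80 in wild type. The lowest values were those of ko/ko 1 and wt/wt 1, 1 array in each of the groups compared most.

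No cone phototransduction gene passed the test between homozygous null and wild-type retinas. Of the 13 probe sets, 0 passed limma's moderated test at an adjusted p under 0.05, as did 0.0% of all probe sets, and 0 passed at an unadjusted p under 0.05, where 0.913% of all probe sets did. In 0 of 13 did the homozygous arrays fall wholly above or below the wild-type arrays, against 4.47% of all probe sets. The deleted gene missed the adjusted threshold too. With all arrays as labelled, the brighter Nxnl1 probe set stood at -1.91 (SE 0.73, unadjusted limma p 0.0308, adjusted p 0.9999). The count of 0 cone probe sets at that threshold therefore does not show that the cone genes were unchanged. With each gene at its brightest probe set, 6 of 9 genes lay above 0 (among them Arr3 at 0.002), with a median log2 difference of 0.067, beside a median of 0.024 over all 18193 genes. The gene differences ran from -0.16 for Pde6c to 0.18 for Opn1sw. Over the 13 probe sets the 95% intervals of these differences reached no lower than -0.75 and no higher than 0.60, which are folds of 0.60 and 1.51, both at probe sets of Arr3. A halving or a doubling of the probe signal therefore lay outside the interval of each gene as the arrays are labelled. With the 2 arrays in doubt left out, 0 of 13 passed at an unadjusted p under 0.05, against 2.01% of all probe sets. There the interval of the second Arr3 probe set was the one that reached lowest, to -1.09.

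**Figure D1:**
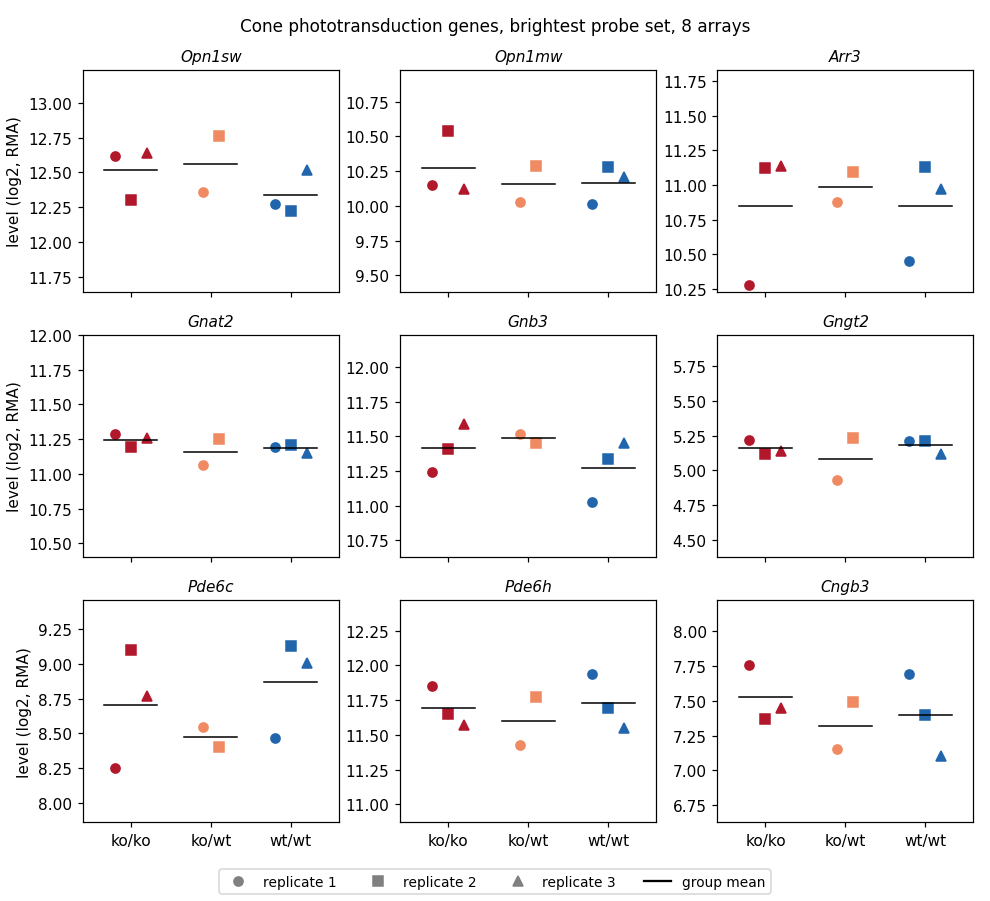
Log2 RMA level (vertical axis) of the brightest probe set of each of the 9 measured cone genes by group (horizontal axis: ko/ko, ko/wt, wt/wt). Each point is an array, the marker gives its replicate number and the line is the group mean; every panel spans the same 1.6 log2 units. Groups overlap in every panel, Gnat2 and Gngt2 are nearly flat, and Arr3 and Pde6c have low points on ko/ko 1 and wt/wt 1.

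**Figure D2:**
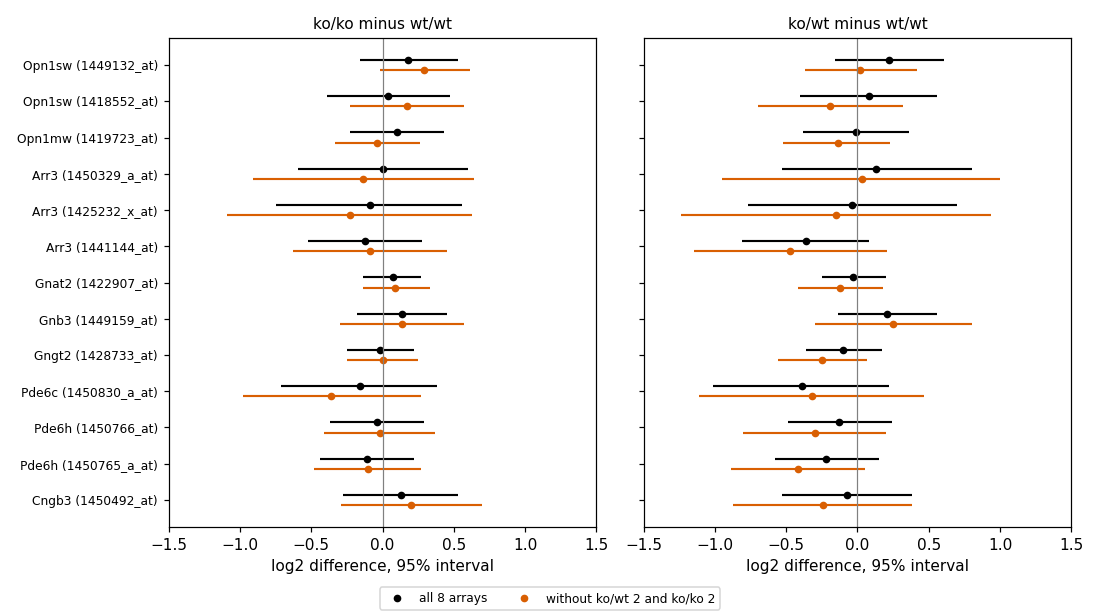
Log2 difference from wild type (horizontal axis) with its 95% interval for each of the 13 cone probe sets (vertical axis), for ko/ko at left and ko/wt at right. Black points use all 8 arrays and orange points leave out those labelled ko/wt 2 and ko/ko 2; every interval includes 0, and the widest belong to Arr3.

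The short-wave opsin Opn1sw, the pigment of ultraviolet-sensitive cones in mice, read 12.62, 12.30 and 12.64 on the arrays labelled ko/ko 1, 2 and 3, 12.36 and 12.76 on those labelled ko/wt 1 and 2, and 12.27, 12.22 and 12.52 in wild type. The groups overlapped, with wt/wt 3 above ko/ko 2. The log2 difference of ko/ko against wt/wt was 0.18 (SE 0.15, interval -0.16 to 0.53, unadjusted limma p 0.256). The 3 highest readings were those of the arrays labelled ko/wt 2, ko/ko 3 and ko/ko 1, which are also the 3 arrays with the lowest Nxnl1. With the 2 arrays in doubt left out it was 0.29 (SE 0.13, interval -0.02 to 0.61, unadjusted limma p 0.0607, adjusted p 0.9761). Array weights, set by how closely each array followed its labelled group, take the 2 labels in doubt as given. With them the difference was 0.35 (unadjusted limma p 0.0113, smallest adjusted p of any probe set 0.2842). Without the 2 arrays and with the actin difference in the fit, a choice made after the data had been seen, it was 0.34 (SE 0.13, unadjusted limma p 0.0405, adjusted p 0.9999). The dimmer of the 2 Opn1sw probe sets did not show that order: it read 7.88, 7.53 and 7.93 in ko/ko, 7.55 and 8.08 in ko/wt, and 7.71, 7.50 and 8.0 in wild type, so that wt/wt 3 stood above 2 of the low-Nxnl1 arrays. Its difference was 0.04 (SE 0.19), and 0.17 (SE 0.16) without the 2 arrays in doubt.

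The medium-wave opsin Opn1mw read 10.15, 10.54 and 10.12 in ko/ko, 10.03 and 10.29 in ko/wt, and 10.01, 10.28 and 10.21 in wild type. Its highest value was on the array labelled ko/ko 2, and the 7 others lay between 10.01 and 10.29, with the groups overlapping. The difference of ko/ko against wt/wt was 0.10 (SE 0.15, interval -0.23 to 0.43), and it was -0.04 (SE 0.12) without the 2 arrays in doubt. The balance between the opsins was read as Opn1sw minus Opn1mw within each array, which cancels whatever scales both alike. It was 2.47, 1.75 and 2.53 in ko/ko, 2.33 and 2.47 in ko/wt, and 2.26, 1.94 and 2.30 in wild type. The array labelled ko/ko 2 had the lowest balance of all 8 and the other homozygous arrays reached the top of the range. The mean balance was 2.25 ± 0.43 in ko/ko and 2.17 ± 0.20 in wild type (SD, n = 3 each), a difference of 0.08 with an exact two-sided permutation p of 0.7, where 3 against 3 arrays cannot go below 0.1. Without the array labelled ko/ko 2 the difference was 0.33 (exact two-sided permutation p = 0.2, with a smallest possible p of 0.1). Against wild type the heterozygous balance differed by 0.23 (exact two-sided permutation p = 0.2).

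Arr3, the arrestin that quenches cone opsins, varied most between arrays after Pde6c at the brightest probe sets. It read 10.28, 11.12 and 11.14 in ko/ko, 10.88 and 11.09 in ko/wt, and 10.45, 11.13 and 10.97 in wild type. The low arrays were ko/ko 1 and wt/wt 1, those with the lowest actin difference, and the 6 others lay between 10.88 and 11.14. The difference of ko/ko against wt/wt was 0.002 (SE 0.26, interval -0.59 to 0.60). Its second probe set, whose suffix marks probes that may also match other transcripts, had the same low arrays, at 9.70 on ko/ko 1 and 9.84 on wt/wt 1 against 10.22 to 10.69 on the others, and a difference of -0.09 (SE 0.29). Without ko/ko 1 and wt/wt 1, a choice made after the data had been seen, the brightest probe set differed by 0.09 (SE 0.13) and the second by -0.07 (SE 0.13). The third probe set did not share the low arrays: it was lowest on ko/wt 1, at 7.81, while wt/wt 1 at 8.10 was level with wt/wt 3 at 8.11. Its difference of ko/ko against wt/wt was -0.12 (SE 0.17).

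Among the transducin subunits Gnat2 and Gngt2 varied least between arrays and Gnb3 varied about as much as the opsins. Gnat2, the catalytic alpha subunit of cone transducin, read 11.29, 11.19 and 11.26 in ko/ko, 11.06 and 11.25 in ko/wt, and 11.19, 11.21 and 11.15 in wild type. Its whole range over 8 arrays was 0.22, and the difference of ko/ko against wt/wt was 0.07 (SE 0.09, interval -0.14 to 0.27), a fold of 0.91 to 1.21. Gnb3, the beta subunit, read 11.24, 11.41 and 11.59 in ko/ko, 11.52 and 11.45 in ko/wt, and 11.03, 11.34 and 11.45 in wild type. The lowest array was wt/wt 1 and the homozygous and wild-type values interleaved, with a difference of 0.14 (SE 0.14, interval -0.18 to 0.45) and a range over 8 arrays of 0.56. Without wt/wt 1 the difference was 0.02, and with array weights it was 0.20 (unadjusted limma p 0.0488). Gngt2, the gamma subunit, read between 4.93 and 5.23 on all 8 arrays, below the median of 6.19 over all probe sets, and its difference was -0.02 (SE 0.10, interval -0.25 to 0.22). A probe set this near the lower end of the scale can hide a change in its transcript, so the flat values of Gngt2 bound the probe signal only.

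Pde6c, the catalytic subunit of the cone phosphodiesterase, had the lowest difference of the set. It read 8.25, 9.10 and 8.77 in ko/ko, 8.55 and 8.40 in ko/wt, and 8.47, 9.13 and 9.01 in wild type. The arrays labelled ko/ko 1, ko/wt 2, wt/wt 1 and ko/wt 1 were the 4 lowest, so both heterozygous arrays and 1 array of each other group read at or below 8.55. The difference of ko/ko against wt/wt was -0.16 (SE 0.24, interval -0.71 to 0.38), and -0.36 (SE 0.25, interval -0.98 to 0.27) without the 2 arrays in doubt. Pde6h, the inhibitory gamma subunit, read 11.85, 11.65 and 11.57 in ko/ko, 11.43 and 11.77 in ko/wt, and 11.94, 11.69 and 11.55 in wild type. It was highest on wt/wt 1 and ko/ko 1, the reverse of Arr3 and Pde6c, with a difference of -0.04 (SE 0.14, interval -0.37 to 0.29). Its other probe set differed by -0.11 (SE 0.14).

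Cngb3, the modulatory subunit of the cone cyclic nucleotide-gated channel, read 7.76, 7.37 and 7.45 in ko/ko, 7.15 and 7.49 in ko/wt, and 7.69, 7.40 and 7.10 in wild type. As with Pde6h, the highest values were those of ko/ko 1 and wt/wt 1, and the groups overlapped throughout. The difference of ko/ko against wt/wt was 0.13 (SE 0.18, interval -0.28 to 0.53), and 0.20 (SE 0.20) without the 2 arrays in doubt.

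Between heterozygous and wild-type retinas no cone phototransduction gene passed either. By limma 0 of 13 probe sets passed at an adjusted p under 0.05 (0.0% of all probe sets) and 0 at an unadjusted p under 0.05 (1.15% of all probe sets). With each gene at its brightest probe set 3 of 9 genes lay above 0, and the median log2 difference was -0.025 beside -0.007 over all genes. Opn1sw was at 0.22 (SE 0.17), which was 0.02 without the array labelled ko/wt 2 and 0.42 without ko/wt 1. With array weights it was 0.31 (unadjusted limma p 0.0354). Gnb3 was at 0.21 (SE 0.15), which was 0.09 without wt/wt 1, and Pde6c was at -0.39 (SE 0.27, interval -1.01 to 0.22). The third Arr3 probe set was the 1 of 13 whose heterozygous arrays lay wholly below wild type, where 14.2% of all probe sets had groups that did not overlap. It read 7.81 and 8.02 in ko/wt and 8.10, 8.63 and 8.11 in wild type, with 7.98, 8.11 and 8.40 in ko/ko, a difference of ko/wt against wt/wt of -0.36 (SE 0.19, unadjusted limma p 0.0956). The other Arr3 probe sets were at 0.13 (SE 0.29) and -0.04 (SE 0.32), so the 3 probe sets of this gene did not share a direction. Without the 2 arrays in doubt, those labelled ko/wt 2 and ko/ko 2, only ko/wt 1 is left of the heterozygotes, which is then assumed to vary like the other groups. On that footing the gene differences of ko/wt against wt/wt ran from -0.32 for Pde6c to 0.25 for Gnb3, and again 0 of 13 probe sets passed at an unadjusted p under 0.05 (1.4% of all probe sets).

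In the heterozygous comparison Pde6c was set against RNA quality. Both heterozygous arrays, with actin differences of -0.90 and -0.71, read at or below 8.55, whereas the wild-type arrays of similar actin difference, wt/wt 2 and wt/wt 3, read 9.13 and 9.01. In a fit that included the actin difference, ko/wt against wt/wt stood at -0.68 (SE 0.15, interval -1.0 to -0.35, unadjusted limma p 0.00114), and without wt/wt 1 and ko/ko 1 it was -0.60 (SE 0.14, unadjusted limma p 0.00324). The adjusted p over all probe sets was 1 in both fits. Without these 2 arrays 3 of 13 probe sets passed at an unadjusted p under 0.05, against 1.51% of all probe sets: Pde6c and, just under the limit, the second Arr3 probe set at -0.30 (SE 0.13) and the third at -0.45 (SE 0.19). The brightest Arr3 probe set did not join them, at -0.07 (SE 0.13). Both fits hold the arrays in doubt. These were then left out as well, a choice made after the data had been seen that leaves ko/wt 1 alone in its group. Pde6c stood at -0.54 with the actin difference in the fit. Without wt/wt 1 and ko/ko 1 it then stood at -0.52, in a fit that holds only ko/ko 3, ko/wt 1, wt/wt 2 and wt/wt 3. There only the wild-type group has a spread of its own. Pde6c passed the adjusted threshold in neither fit. The arrays labelled ko/ko 2, which is in doubt, and ko/ko 3, whose actin difference of -1.26 is lower than that of the arrays just compared, read 9.10 and 8.77 at Pde6c. Without wt/wt 1 and ko/ko 1, ko/ko against wt/wt was -0.14 (SE 0.14), with 0 of 13 probe sets passing at an unadjusted p under 0.05 against 1.48% of all. For ko/ko against ko/wt in that fit 1 of 13 passed, Pde6c at 0.46 (SE 0.14), against 1.29% of all. With the arrays in doubt left out too, this comparison is ko/ko 3 against ko/wt 1 alone, and Pde6c was at 0.22. The comparisons with wild type share the wild-type arrays, and ko/ko against ko/wt shares the heterozygous arrays with ko/wt against wt/wt.

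Homozygous and heterozygous retinas overlapped at all 13 probe sets, where 12.4% of all probe sets had groups that did not overlap. By limma 0 of 13 passed at an adjusted p under 0.05 (0.0% of all probe sets) and 0 at an unadjusted p under 0.05 (0.899% of all probe sets). The differences of ko/ko against ko/wt ran from -0.13 for the brightest Arr3 probe set to 0.24 for the third probe set of the same gene. Without the 2 arrays in doubt 0 of 13 passed at an unadjusted p under 0.05, against 2.64% of all probe sets.

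Across arrays the cone genes had no common course. Over the 36 pairs of genes, Pearson's r on 8 arrays ran from -0.855 to 0.89, with 20 pairs above 0. By exact permutation and Benjamini-Hochberg adjustment over the 36 pairs, 0 passed at 0.05, with smallest adjusted values of 0.0798 for Pearson and 0.193 for Spearman. The pair of Pde6h and Cngb3 had the highest r, at 0.89 (exact permutation p = 0.00446; by ranks, Spearman's rho 0.881, exact permutation p = 0.00724), and 0.844 without the 2 arrays farthest from the median. Gnb3 and Pde6h ran in opposite directions, with r = -0.855 (exact permutation p = 0.00541; by ranks, Spearman's rho -0.857, exact permutation p = 0.0107), and -0.558 without 2 arrays. Arr3 and Pde6c, the genes that were low on ko/ko 1 and wt/wt 1, had r = 0.7 (exact permutation p = 0.0522; by ranks, Spearman's rho 0.69, exact permutation p = 0.0694), and 0.352 without 2 arrays.

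The direction of each gene against RNA quality differed within the set. Against the actin difference r was above 0 for 5 of 9 genes, and 0 of 9 passed after adjustment by either measure. Arr3 had r = 0.833 (exact permutation p = 0.025, adjusted 0.13; by ranks, Spearman's rho 0.381, exact permutation p = 0.36, adjusted 0.54), and -0.252 without the 2 arrays farthest from the median, so the relation rested on wt/wt 1 and ko/ko 1. Cngb3 ran the other way, with r = -0.772 (exact permutation p = 0.0289, adjusted 0.13; by ranks, Spearman's rho -0.619, exact permutation p = 0.115, adjusted 0.517), and -0.194 without 2 arrays. Gnb3 had r = 0.713 and -0.463 without 2 arrays, and Pde6h had r = -0.649 and 0.281 without 2 arrays. The r of Opn1mw changed less, from 0.61 (exact permutation p = 0.111, adjusted 0.2) to 0.558 without 2 arrays. Its rank correlation was the strongest of the 9 genes (rho 0.786, exact permutation p = 0.0279, adjusted 0.251), and it did not pass either. Opn1sw had an r of 0.0596. The part of RNA quality in these levels was not tested beyond the fits given.

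**Figure D3:**
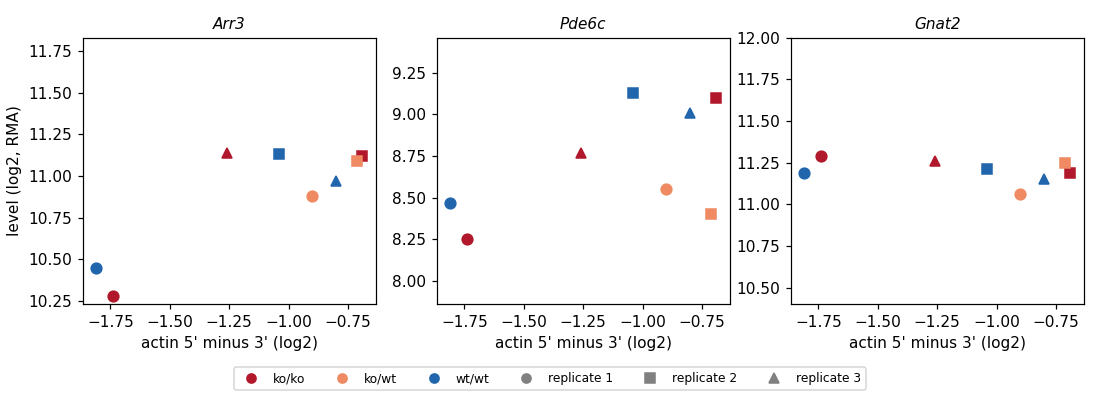
Log2 RMA level (vertical axis) of the brightest probe sets of Arr3, Pde6c and Gnat2 against the actin difference, 5′ less 3′ signal (horizontal axis, log2) on 8 arrays; colours give the genotype and markers the replicate number. Arr3 is low only on the leftmost arrays, wt/wt 1 and ko/ko 1, Pde6c is also low on both ko/wt arrays, and Gnat2 stays between 11.06 and 11.29.

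The rod counterparts, which carry out the same steps in rods, gave 9 measured genes. For ko/ko against wt/wt 7 of 9 lay above 0, with a median log2 difference of 0.027, and 0 passed at an adjusted or unadjusted p under 0.05. Paralog by paralog, the cone gene and its rod counterpart stood at 0.002 (Arr3) and 0.02 (Sag, rod arrestin), 0.07 (Gnat2) and 0.01 (Gnat1), and 0.14 (Gnb3) and 0.03 (Gnb1). They stood at -0.02 (Gngt2) and -0.13 (Gngt1), and at -0.04 (Pde6h) and 0.07 (Pde6g). Pde6c at -0.16 had the rod subunits Pde6a and Pde6b beside it, at -0.06 and 0.06, and Cngb3 and Cngb1 were both at 0.13. In 7 of these 8 pairs the level of the cone gene spread more widely over the 8 arrays than that of its counterpart, the exception being Gngt2, with a range of 0.30 against 0.45 for Gngt1. Gnat1 and Sag spread over 0.07 and 0.17. Both lay near the top of the scale, where array signals can flatten.

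Other genes that act on the same cascade or mark cones were also without calls. Of the 13 listed regulators shared by rods and cones 12 were measured, with 5 above 0 and a median of -0.012 for ko/ko against wt/wt. By smallest p they were led by the opsin kinase Grk1 at -0.27 (SE 0.27), the prenyl-binding Pde6d at -0.10 (SE 0.11) and Gnb5, a partner of the GTPase-activating Rgs9, at 0.11 (SE 0.13). All 7 other cone genes were measured, with 4 above 0 and a median of 0.031. They were led by Clca3a2 at 0.11 (SE 0.09), which at about 3.2 lay near the bottom of the scale, Gulo at -0.18 (SE 0.14) and Ccdc136 at 0.11 (SE 0.10). The list includes Thrb, the thyroid hormone receptor that directs medium-wave opsin expression, at -0.13, and Rxrg, a partner receptor that represses the short-wave opsin, at 0.03. Of the 16 regulators of photoreceptor fate 15 were measured, with 8 above 0 and a median of 0.003. Prdm1, which steers precursors away from the bipolar fate, was at -0.30 (SE 0.14), Sall3 at 0.15 (SE 0.13) and Otx2 at -0.10 (SE 0.10), and Crx itself was at -0.03 (SE 0.08). In each of these lists 0 genes passed limma at an adjusted or an unadjusted p under 0.05 with all arrays.

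**Figure D4:**
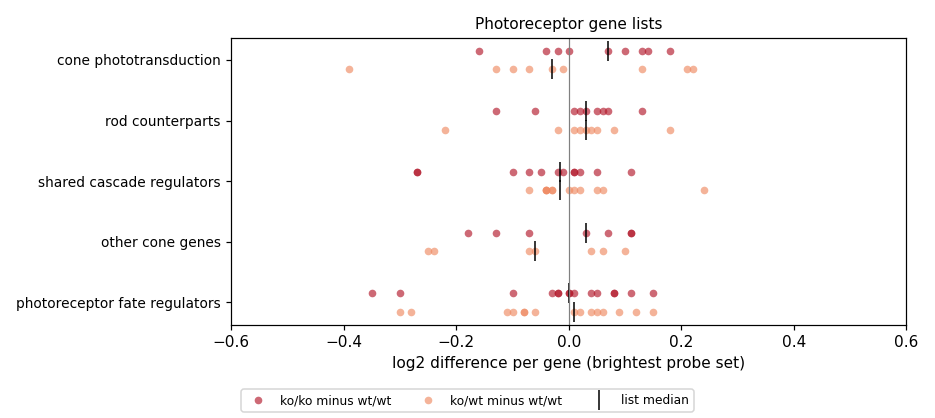
Log2 difference from wild type (horizontal axis) of each measured gene of the 5 photoreceptor lists (vertical axis), for ko/ko in red and ko/wt in orange; black ticks are list medians. The points of every list lie on both sides of 0, and the cone phototransduction medians are 0.067 for ko/ko and -0.025 for ko/wt.

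Markers of other retinal cells were measured on all arrays, and 0 passed the adjusted threshold. The gene said to lead a list is that of smallest p, not of largest difference. For ko/ko against wt/wt the medians were 0.062 for bipolar cells (5 of 6 above 0, led by Cabp5 at 0.25), 0.045 for amacrine and horizontal cells (9 of 11, led by Chat at 0.16), 0.029 for ganglion cells (4 of 7, led by Thy1 at 0.11) and 0.046 for Müller glia (6 of 10, led by Gfap at 0.42). Microglial markers had a median of 0.144 (10 of 11 above 0, led by Lyz2 at 0.27, while C1qc at 0.46 with an SE of 0.29 was higher). Lyz2 was the 1 gene of all 12 lists at an unadjusted limma p under 0.05 in this comparison (p 0.028). Over all 18193 genes 113 were higher and 40 lower at that threshold. Without the 2 arrays in doubt there were 10 such genes on the lists: 4 of lens, Gfap at 0.64 and Clu at 0.34 of Müller glia, Cd68 at 0.42 and Lyz2 at 0.31 of microglia, Cabp5 at 0.34 of bipolar cells, and the fate regulator Prdm1 at -0.42 (SE 0.13, p 0.0178). The adjusted threshold was passed by 0 of them. Over all 18193 genes 345 were higher and 93 lower at an unadjusted limma p under 0.05 in that fit. The marker lists of neighbouring tissue were uneven. The summed lens markers, on the log2 scale, ran from 10.21 to 13.89 in ko/ko. They stood at 10.18 and 12.62 in ko/wt and ran from 10.12 to 12.40 in wild type. This spread came mainly from crystallin genes, such as Cryaa at 11.72, 5.45 and 10.27 in ko/ko. For ko/ko against wt/wt 12 of 13 lens markers lay above 0, with a median of 0.645, the highest of the 12 lists, and 1.601 without the 2 arrays in doubt. The lens markers that are not crystallins differed less, with Mip at 0.03, Lim2 at -0.02, Bfsp2 at 0.16 and Bfsp1 at 0.28. The summed pigment epithelium markers ran from 12.81 to 13.59 in ko/ko, stood at 12.93 and 13.01 in ko/wt and ran from 13.20 to 13.81 in wild type, with 3 of 13 above 0 and a median of -0.121 for ko/ko against wt/wt and 2 of 13 and -0.523 for ko/wt. In the heterozygous comparison 4 of the 13 pigment epithelium genes were lower at an unadjusted limma p under 0.05, among them Dct at -0.80 and Rgr at -0.68. Over all 18193 genes 82 were higher and 131 lower at that threshold in this comparison. The cone phototransduction sum ran from 14.12 to 14.21 in ko/ko, stood at 14.02 and 14.26 in ko/wt and reached 14.12 in wild type, where wt/wt 2 read 14.08 and wt/wt 1 was the lowest of all 8 arrays. Whether adhering tissue had a part in the cone values was not tested.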

How the data were processed

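Total RNA of mouse retinas was hybridised to Affymetrix 3' arrays, 1 array per sample. The authors deposited log2 expression values made with RMA, per the submitters' processing notes; no version is given in the sources used here. RMA equalises the distributions of the arrays, so each difference is relative to the bulk of transcripts. The design text names 9 samples, of which 8 were analysed here. Of 45101 probe sets, 64 controls were left out. In the platform annotation 34945 probe sets had 1 symbol, 932 several and 9160 none, and 34741 symbols were brought up to date by gene ID.

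Means of the 3 groups were fitted in 1 model (limma 3.58.1, R 4.3.3; 5 residual degrees of freedom, no detection filter), with two-sided moderated tests, 95% intervals and Benjamini-Hochberg adjustment over 45037 probe sets at 0.05. The fit was tested on simulated data. A gene's level is that of its probe set with the highest mean, where one is needed. Every cone probe set was named, with Nxnl1, the rod counterpart of each cone gene and up to 3 genes of smallest p per list. Crx, Thrb and Rxrg were named for their role, outside that rule. The members, lists and tests were chosen with earlier results of these data known. The number of arrays limits the precision.

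Alternatives were repeated quantile normalization, equal medians, a filter on dim probe sets, an intensity trend, a robust prior, array weights, 2 groups only, a replicate block, an actin covariate, the mean of a gene's probe sets and leaving out arrays, alone or together with the actin covariate.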

Additional observations from a re-analysis of the deposited data

How the results depend on the processing

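In every fit named above 0 of 13 cone probe sets passed the adjusted threshold, in each of the 3 comparisons (the filter on dim probe sets tested 22519 and left out Gngt2). Over all probe sets the count was 0 in each fit with 2 exceptions, neither from a cone gene. It was 1 in each comparison with wild type without wt/wt 3, so that leaving out 1 array gave 0 to 1. It was also 1 in ko/ko against wt/wt with the actin covariate and the arrays in doubt left out. That 1 was the brighter probe set of Nxnl1 itself, at -2.91. The arrays in doubt had been picked by their Nxnl1 level, so this call is not an independent result for Nxnl1. For ko/ko against wt/wt the sign of the log2 difference was the same in every refit for 3 of 9 genes, Opn1sw, Gnat2 and Gnb3. It turned in some refit for each of the other 6, in 17 of the 191 refits over all 9 genes. With 1 array left out, sizes ran from 0.12 to 0.29 for Opn1sw and 0.02 to 0.22 for Gnb3. For ko/wt against wt/wt the sign was the same for Gnb3 (0.09 to 0.30 with 1 array left out) and Pde6c (-0.60 to -0.26 likewise). There it turned in 21 of the 191 refits over all 9 genes. Opn1sw (0.02 to 0.42 with 1 array left out) was at -0.02 without the arrays in doubt with the actin covariate. It was at -0.01 without these and wt/wt 1 and ko/ko 1. In these 2 fits Arr3 was at -0.22 and -0.17. In the last fit Opn1mw of ko/ko was at -0.13. Both fits were chosen after seeing the data. None of these cone differences was called, and the cause was not tested. For ko/ko, without the 2 arrays in doubt Opn1mw was at -0.04, Arr3 at -0.14 and Gngt2 at 0.0032; Arr3 was at -0.01 after repeated quantile normalization and with array weights and at -0.07 as the mean of its probe sets, and Opn1mw at -0.08 with array weights. Leaving out 1 array in turn gave -0.04 to 0.18 for Opn1mw, -0.20 to 0.29 for Arr3, -0.05 to 0.0032 for Gngt2, -0.36 to 0.06 for Pde6c, -0.13 to 0.07 for Pde6h and -0.02 to 0.27 for Cngb3. For ko/wt, Opn1mw was at 0.01 and Gnat2 at 0.0027 after repeated quantile normalization; Arr3 was at -0.09 with array weights and as the mean of its probe sets, -0.15 with the actin covariate and -0.07 without wt/wt 1 and ko/ko 1; Cngb3 was at 0.09 and 0.07 in the last 2 of these fits. Leaving out 1 array gave -0.14 to 0.12 for Opn1mw, -0.07 to 0.27 for Arr3, -0.12 to 0.07 for Gnat2, -0.25 to 0.06 for Gngt2, -0.30 to 0.04 for Pde6h and -0.24 to 0.10 for Cngb3. The opsin balance of ko/ko against wt/wt ran from -0.06 to 0.33 with 1 array left out. Same-numbered ko/ko and wt/wt arrays did not deviate together throughout (r of 0.616, 0.23 and -0.035). Other-numbered ko/ko and wt/wt arrays ran from -0.642 to 0.519. So few arrays cannot settle whether the numbers pair them. With the replicate block the opsin balance differed by 0.08 and 0 probe sets were called.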
